A study of Mus musculus with 4 samples.

Results

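The region described here lies on mouse chromosome 7 (mm9, chr7:80920001-80980000) and holds 2 noncoding RNA genes that start beside each other and run apart, Gm10619 on the minus strand and Gm21269 on the plus strand. Its members were chosen by position: all sequences of the deposited list whose 5′ end falls between these borders, 7940 of 4906138 sequences, at 4322 of 3454272 distinct 5′ ends. The borders themselves were selected on measured values, the number of sequences per 20 kb window and their strand, so density and strand arrangement are given below as description and were not tested. The study examined how small RNAs bound to the PIWI protein MILI (Piwil2) change without TDRD9, a helicase, and sequenced RNA pulled down with MILI from 14 dpp (days post partum) testes of strain C57BL/6, in 2 Tdrd9-/- and 2 Tdrd9+/- libraries. The labels call the controls heterozygous and give neither the Tdrd9 allele nor the number of mice per library. RNA of about 28 to 30 nt was eluted from a gel before sequencing, so length was limited beforehand in all libraries. All 4 libraries are pooled in 1 list of distinct sequences, with neither read counts nor any mark of the library. Depth per library is therefore unknown, no replicate error can be given, and the genotypes were not compared. The whole list held small RNAs that match germ cell transcripts, with 149 sense sequences for Ddx4, 288 for Dazl and 199 for Sycp3. Sertoli cell markers had fewer, with 27 for Sox9, 7 for Wt1 and 7 for Amh, and Alb and Ins2, markers of liver and pancreas, had 0 each. These numbers were not adjusted for transcript length and measure neither transcripts nor cells.

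PIWI-interacting RNAs (piRNAs) of the mouse male germline are cut from long single-stranded transcripts, many of which come from noncoding genes called piRNA clusters. A 5′ U marks piRNAs made directly from such a precursor. An A at position 10, together with an opposite-strand partner that overlaps by 10 nt, marks those made by PIWI slicing. Clusters active from the pachytene stage of meiosis are often transcribed in both directions from a shared promoter, which the germ cell transcription factor A-MYB (Mybl1) is known to bind.

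The sequences below show what the members look like on each strand: the 3 ends with the most listed sequences, the lowest position first among ties, and the end nearest to the gene starts. Each is the longest listed sequence of its end, written 5′ to 3′ as DNA with the first base in capitals, at its mm9 position.
Minus strand, chr7:80933170-80933199: Ttccggatttgagctaacagaagaatcttg
Minus strand, chr7:80937233-80937261: Tggaatgttcaggaagaagtaagattagt
Minus strand, chr7:80938919-80938948: Tatttgtcagagcagagaaataccttgtct
Minus strand, nearest the gene starts, chr7:80961363-80961391: Tgaaaaaactgtcacacagcaaagctcca
Plus strand, chr7:80967724-80967753: Tgagttggatgtagaaacccaggctaaggc
Plus strand, chr7:80969572-80969601: Tgacttctgataggccttggcaacctccct
Plus strand, chr7:80970262-80970290: Tggtaactctgttggatgaggctggcacc
Plus strand, nearest the gene starts, chr7:80961400-80961427: Tggaatgttgtgaaaattctcagcagtt
All 8 begin with U in RNA. The 6 fullest ends carried 7 sequences each, a number reached by 6 ends of the minus strand and 3 of the plus strand. Those sequences share the 5′ end and differ in the 3′ end, from 24 to 30 nt at the end at 80967724 for example. The 2 ends nearest the gene starts had 1 sequence each. Both lie before the annotated starts, the minus-strand end 2 nt before that of Gm10619 and the plus-strand end 32 nt before that of Gm21269.

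The region split at a single point into a long minus-strand arm and a shorter plus-strand arm. By exact match of listed sequences to its transcript, the first base of Gm10619 was placed at mm9 position 80961389 and that of Gm21269 at 80961432, 43 nt apart and pointing away from each other. The minus arm, which runs left from there, held 5897 sequences at 3177 ends, or 74.3% of the members. The plus arm held 1833 sequences at 997 ends, or 23.1%. The other strand was nearly empty on both sides: 191 plus-strand sequences lay left of the gene starts, 119 of them over the last exon of the neighbouring gene Fam174b, and 19 minus-strand sequences lay right of them. In whole testis, the number of cells that carry such RNAs and their amount per cell cannot be told apart, and a list of distinct sequences counts rare and abundant RNAs alike.

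Sequences were spread along the minus arm, and along the first exon of Gm21269 in the plus arm. The 39 full 1 kb bins of the minus arm between Fam174b and the gene starts had a median of 145 minus-strand sequences, from 23 to 257. The 9 bins of the plus arm over the first exon of Gm21269 had a median of 179 plus-strand sequences, from 116 to 295. Listed sequences covered 25996 bases of the minus arm, 63.0% of the span between its outermost ends, and 8051 bases of the plus arm, 43.5% of its span. The longest unbroken stretch was 259 bases in the minus arm and 481 bases in the plus arm. Bases without a listed sequence were not checked for repeats. By 20 kb window, the region held 2320, 3447 and 2173 sequences from left to right, and the windows just outside held 168 on the left and 250 on the right.

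**Figure D1:**
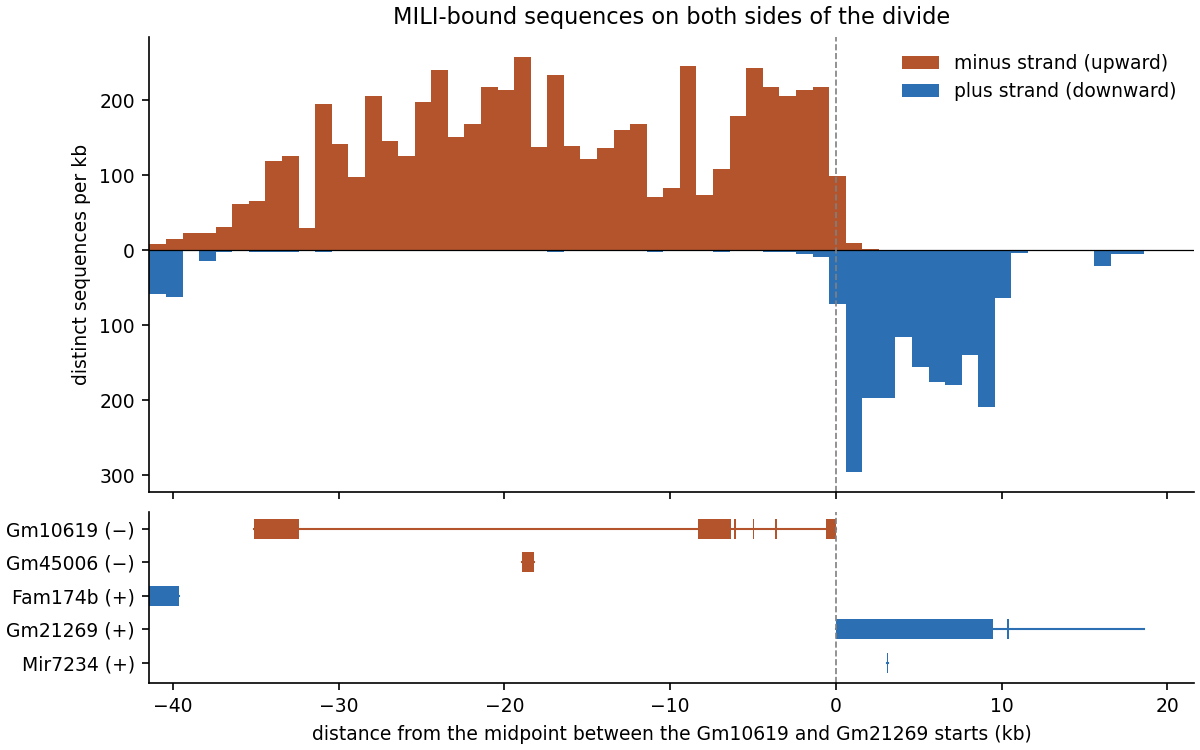
Distinct sequences per 1 kb bin (y axis) by distance in kb from the midpoint between the starts of Gm10619 and Gm21269 (x axis), minus strand upward and plus strand downward, above the exons (boxes) and spans (lines) of the genes as placed by sequence match. The minus-strand bins stand left of the midpoint over and beyond Gm10619, the plus-strand bins stand over the first exon of Gm21269, and the plus-strand bins at the far left lie over the last exon of Fam174b. Gm21269 is drawn up to the border of the region.

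Gm21269, a long intergenic noncoding RNA, accounted for nearly the whole plus arm. Exact matches to its transcript were found for 1759 of the 1833 plus-arm sequences (96.0%). Its first exon, 9486 nt long, held 1728 sequences at 932 ends, or 98.3 ends per kb, and its second exon, 143 nt long, held 28 sequences at 14 ends, or 97.9 ends per kb. The first intron of 807 nt between them held 37 sequences at 19 ends, 23.5 ends per kb, and the second intron, which runs past the right border, held 3.50 ends per kb over 8281 nt. Beyond the right border of the region, the third exon of 125 nt held 2 sequences at 2 ends, 16.0 ends per kb, the third intron 30.9 ends per kb and the fourth exon 168 sequences at 38.1 ends per kb. Density was thus higher in the first 2 exons than in the introns beside them, and lower in the third exon than in the intron after it.

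Gm10619, the noncoding gene of the minus arm, had many sequences outside its exons as well as in them, and its exons differed widely in density. The 3 annotated transcripts together placed it from 80926315 to 80961389. Only 1 of them, Gm10619-202, reaches 80926315, and the other 2 end at 80953108. Of the 5897 minus-arm sequences, 671 matched a Gm10619 transcript, and 790 (13.4%, exact Clopper-Pearson 95% interval 12.5–14.3%, counting error only, as for all intervals of shares below) matched any transcript in sense. Taken over all exons, Gm10619 had 71.2 ends per kb over 5495 nt, and the rest of its span had 90.1 ends per kb over 29580 nt. The pooled exon value was set by the 3 long last exons of its transcripts, 2 of which overlap, with 47.9 ends per kb over 1524 nt, 56.1 over 1961 nt and 58.3 over 2694 nt. The 7 shorter exons, of 64 to 567 nt and in part overlapping, had 84.9 to 198.3 ends per kb, and 6 of them were above the value outside exons. The longest of these, the first exon of 567 nt, had 135.8 ends per kb. The exons of 88 and 232 nt lie wholly inside it and are not separate places. All 7 shorter exons lie near the gene start, between 80954633 and 80961389. From 80955001 to 80961000 the 1 kb bins, exons and introns together, held 99 to 124 minus-strand ends. The value of 90.1 outside exons covers the whole span, so exon and place along the gene were not told apart. In the exon of 64 nt 21 sequences began, at 10 ends, and 1 listed sequence lay wholly inside it. Left of the annotated gene end the minus strand still held 186 sequences at 119 ends, 18.8 ends per kb. The share of ends with a 5′ U was 70.6% (65.8–75.1%) in exons and 67.7% (65.9–69.5%) outside them. None of these densities was tested.

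Other annotated genes contributed a few sequences. Gm45006, a transcript of the annotation class TEC on the same strand as Gm10619, held 119 sequences at 63 ends (chr7:80942489-80943178). It lies within an intron of the Gm10619 transcript that reaches farthest left, and beyond the end of the others. Fam174b, a protein-coding gene for a membrane protein, had 119 sense and 23 antisense sequences, all over its last exon, which reaches into the region from the left on the plus strand and ends at 80921805. The share of sense ends that began with U was 71.2% (59.4–81.2%) among 73 in Fam174b, 69.6% (66.5–72.5%) among 947 in Gm21269, 71.0% (66.1–75.5%) among 372 in Gm10619 and 61.9% (48.8–73.9%) among 63 in Gm45006. These intervals overlap.

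A microRNA gene, Mir7234, is annotated inside the first exon of Gm21269, and no listed sequence there began where a mature form begins or had its length. RefSeq (GRCm38.p6) gives a hairpin of 52 nt with mature arms of 23 nt, shown here with the seed (bases 2 to 8) in capitals, followed by a listed sequence of the end with the most sequences lying wholly inside the hairpin, which was chosen after its values were seen.
mmu-miR-7234-5p: uUGUUUUCuccaaagacguuucu
mmu-miR-7234-3p: aAACGUCUuucuaggguagaagg
Listed, chr7:80964498-80964525: taggtagaaacgtctttctagggtagaa
The hairpin was placed at mm9 positions 80964476 to 80964527 by sequence match. On the plus strand 23 listed sequences of 25 to 29 nt at 11 ends overlapped it, of which 7 lay wholly inside, at hairpin positions 20, 23 and 25. The mature arms begin at hairpin positions 1 and 30, and 0 listed sequences began at either of them. At the 3′ side, 1 listed sequence of 28 nt ended on the last base of the 3p arm, hairpin position 52. The sequence shown starts at hairpin position 23, before the 3p arm, and the same end also carried sequences of 25, 26 and 27 nt. The gel slice was set above the length of the mature arms, so the list is no measure of the microRNA itself.

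The gap between the genes is short enough for 1 promoter window to hold both starts. The window that RefSeq sets for Gm10619 (GRCm38.p6, chr7:73816454-73816753, minus strand) is printed 5′ to 3′ in the direction of Gm10619, because both arms begin in it. Capitals mark the MYB core letters AACTG and, for the other strand, CAGTT.
Gm10619 promoter: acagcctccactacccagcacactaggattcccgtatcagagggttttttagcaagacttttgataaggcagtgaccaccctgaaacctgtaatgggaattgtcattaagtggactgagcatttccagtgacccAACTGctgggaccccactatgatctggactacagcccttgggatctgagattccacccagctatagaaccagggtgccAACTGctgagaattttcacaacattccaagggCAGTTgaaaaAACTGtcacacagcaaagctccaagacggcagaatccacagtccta
Gm10619 starts at base 251 of this window and Gm21269, on the other strand, at base 208. The window up to base 208 thus belongs to the first exon of Gm21269, and only bases 251 to 300 to that of Gm10619. Member sequences inside the window numbered 28, of which 5 were on the minus and 23 on the plus strand. Because the genes share it unequally, these numbers do not compare the strands. The core AACTG was found 4 times on both strands together, at bases 135, 213 and 255 as written and at base 245 for the other strand, and the matches do not overlap. Those at 213 and 245 lie between the 2 gene starts. The match at 135 lies inside the first exon of Gm21269 and that at 255 inside the first exon of Gm10619. Of 32817 promoter windows of the same length, 44.8% held at least 1 match and 0.655% held 4 or more. The TATA box letters TATAAA and the letters CCAAT, also searched on both strands, were not in this window, and 13.6% and 37.4% of all windows held them. The motifs were chosen after the window had been seen, and a match is a description of letters, not of binding.

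The 5′ U of primary piRNAs was present on both arms to a like degree. Of distinct ends, 68.6% (67.0–70.2%) of the minus arm and 70.3% (67.4–73.1%) of the plus arm began with U, a difference of −1.69 percentage points (95% Newcombe interval −4.90 to 1.62; adjusted p = 0.392, Fisher's exact test, two-sided, Benjamini-Hochberg over 12 tests). Ends of 1 transcript are not independent, so all p-values of this kind cover counting error only. U made up 26.4% of the covered bases of the minus arm and 27.7% of those of the plus arm. Per 100 covered U positions, 31.7 served as a 5′ end in the minus arm and 31.4 in the plus arm, against 4.90 to 5.36 and 4.60 to 5.42 per 100 of the other bases. U was thus used 6.09 and 6.19 times as often as the other bases combined.

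Ends with many 3′ variants began with U more often, in the region as in the rest of the list. In the minus arm the share with a 5′ U was 57.2% (54.8–59.5%) among 1762 ends with a single sequence, 74.8% among ends with 2, 86.1% among ends with 3 and 93.9% (91.0–96.2%) among 363 ends with 4 or more. In the plus arm the shares were 62.1% (57.9–66.1%) of 564 ends, 72.2%, 83.5% and 93.2% (87.1–97.0%) of 118 ends. In the rest of the list the share rose from 68.8% of ends with a single sequence to 89.2% of ends with 4 or more. It rose from 36.7% to 78.1% in the chromosome 17 cluster and from 56.1% to 89.6% in the chromosome 9 cluster, both compared below. Along the minus arm, the share was 66.3% (63.3–69.2%) within 10 kb of the gene start, 69.5% from 10 to 20 kb, 68.2% from 20 to 30 kb and 73.6% (69.0–77.8%) beyond. These differences along the arm were not tested.

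Lengths had a mode of 27 nt in both arms, after a MILI pull-down and a gel slice that limited length beforehand. Sequences of 28 to 30 nt, the stated slice, made up 42.1% of the region and 37.1% of the rest of the list. The mean was 27.3 nt (SD 1.36 nt over sequences) in the minus arm and 27.2 nt (SD 1.34 nt) in the plus arm. Sequences of 26 to 28 nt made up 73.3% (72.2–74.5%) of the minus arm and 74.8% (72.8–76.8%) of the plus arm (difference −1.51 points, −3.75 to 0.814; adjusted p = 0.270, Fisher's exact test).

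**Figure D2:**
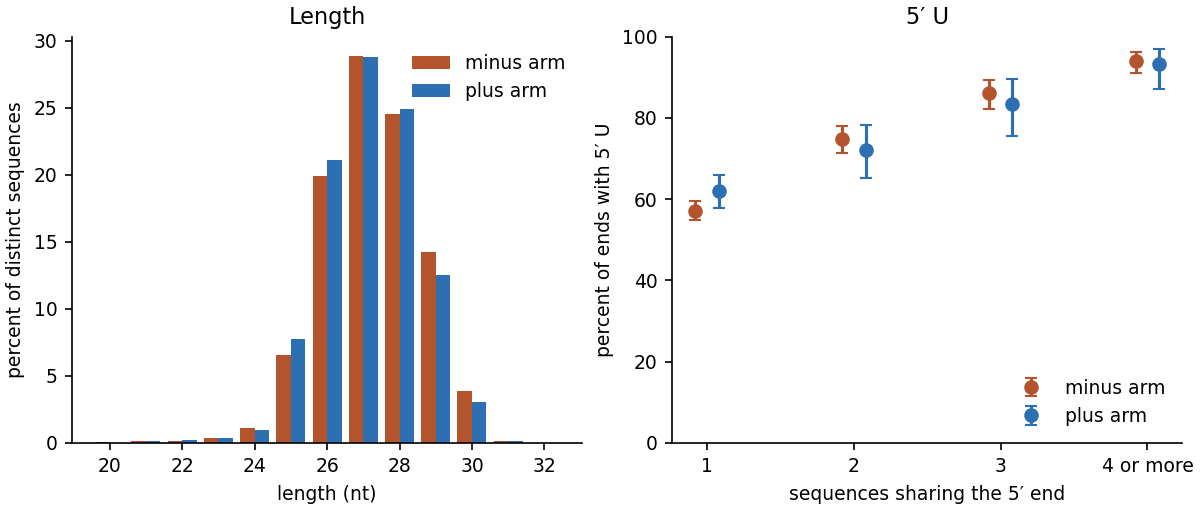
Left, percent of distinct sequences (y axis) by length in nt (x axis), where both arms peak at 27 nt. Right, percent of ends with a 5′ U (y axis) by the number of listed sequences that share the end (x axis), with exact 95% intervals, climbing to 93.9% in the minus arm and 93.2% in the plus arm at 4 or more.

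An A at position 10, the mark of slicing products, was more frequent in the minus arm but did not stand out from the positions around it. It was carried by 33.0% (31.3–34.6%) of minus-arm ends and 28.3% (25.5–31.2%) of plus-arm ends, a difference of 4.67 points (1.37 to 7.84; adjusted p = 0.0113, Fisher's exact test). Over positions 11 to 20, A averaged 30.8% in the minus arm and 28.3% in the plus arm, and A made up 28.9% and 26.1% of their covered bases. Position 5 had more A than position 10 in both arms, 39.7% in the minus arm and 38.1% in the plus arm. How much of the difference at position 10 goes with base content was not tested.

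**Figure D3:**
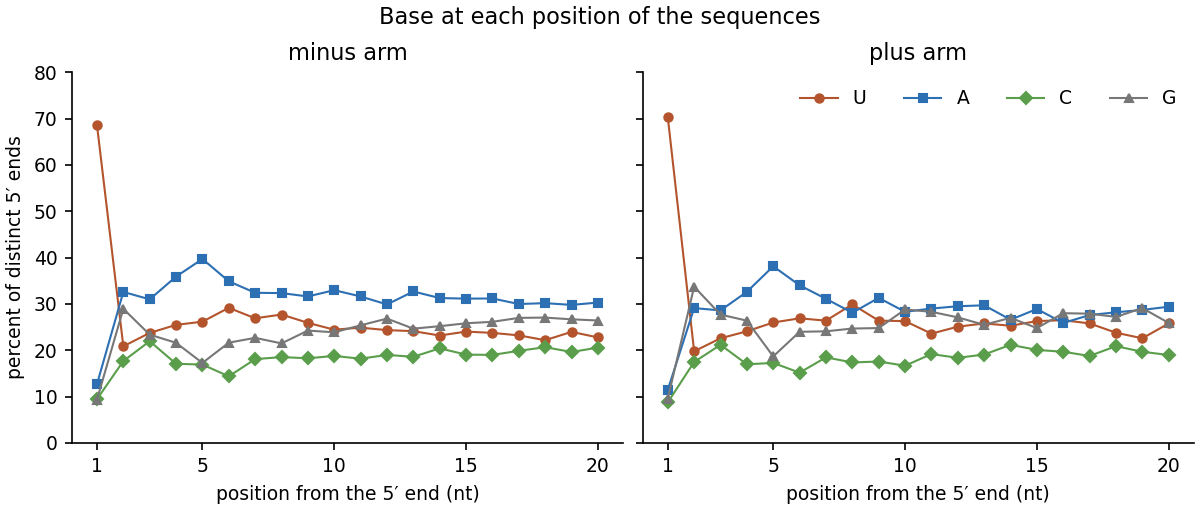
Percent of distinct 5′ ends with each base (y axis) at positions 1 to 20 of the sequence (x axis), minus arm on the left and plus arm on the right. U stands at 68.6% and 70.3% at position 1 and near the level of the other bases afterwards, and A is highest at position 5.

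Opposite-strand pairs with the 10-nt overlap were few, and more numerous than at any other overlap from 1 to 20 nt. At this overlap 19 pairs of ends were found, while the other overlaps had 5 to 15 pairs with a mean of 10.1, a ratio of 1.89 (1.11–3.03, counting error only). Of the 19, 8 lay right of the gene starts, 4 over the last exon of Fam174b and 7 between. Right of the gene starts, where only 15 minus-strand ends were listed, 8 of those 15 (53.3%) had a 10-nt partner, against a mean of 2.11 and at most 4 at another overlap. These 8 pairs lay 187 to 1266 nt from the start of Gm10619, within the first exon of Gm21269. All 8 plus-strand partners began with U and 1 of the 8 minus-strand partners did. Base 10 of a partner is the complement of base 1 of the other, so A at position 10 across from a 5′ U is fixed by the pairing and is no second observation.

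The pairs shown had the most sequences on each side of the gene starts, the lower position first among ties, with the 10 overlapping bases in capitals.
Right side, plus strand, end at 80962559: TTCTAAGTGTagactaccatgactgtctg
Right side, minus strand, end at 80962568: ACACTTAGAAtgaggcttggcctggg
Left side, plus strand, end at 80952712: TAAGCAGATAtgaatggctatcaaactc
Left side, minus strand, end at 80952721: TATCTGCTTAtgacttagaaaagacacag
On the right the arm's own end held 4 sequences and its partner 1, and on the left the arm's own end, outside the exons of Gm10619, held 4 and its partner 1. Left of the gene starts and outside the last exon of Fam174b, 7 of 60 plus-strand ends (11.7%) had a 10-nt partner, against a mean of 5.21 and at most 8 at the other overlaps. Over the last exon of Fam174b the numbers were 4 of 73 ends, against a mean of 2.74 and at most 5.

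Stepwise cutting along a precursor places a 5′ end on the base that follows a 3′ end (distance 1), if that 3′ end stays as cut. Neither arm had its highest number of pairs at this distance. The listed 3′ ends are those of the bound RNAs, so whether cutting was stepwise was not tested. The minus arm had 424 such pairs, against a mean of 457.6 at distances 2 to 20 (426 to 482), a ratio of 0.927, and each of these 19 distances had more. In the plus arm there were 148, against a mean of 133.05 (110 to 157), a ratio of 1.11. The base after the 3′ end could be read from overlapping sequences for 90.6% of minus-arm and 92.1% of plus-arm 3′ ends. It was U in 27.2% (25.8–28.6%) and 27.1% (24.6–29.6%) of them, against 26.4% and 27.7% U in the covered bases. Each distinct end was counted once, whatever its abundance.

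**Figure D4:**
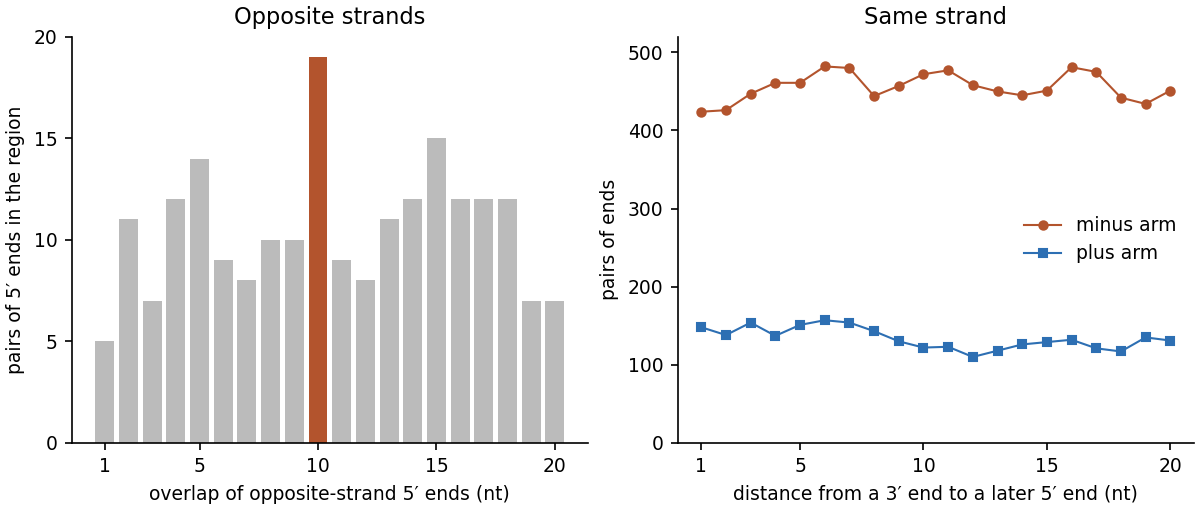
Left, pairs of opposite-strand 5′ ends in the region (y axis) by overlap in nt (x axis), with the 19 pairs at 10 nt coloured. Right, pairs of a 3′ end and a later 5′ end on the same strand (y axis) by distance in nt (x axis) for the minus arm and the plus arm, with 424 and 148 pairs at distance 1.

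Set against the whole list, the region ranked 7 by sequences among 510 clusters of joined 20 kb windows with 1000 or more sequences, and 3 among the 68 clusters with at least 20% of sequences on each strand. Its ends carried a 5′ U in 69.1% of cases (67.7–70.5%), against 72.0% in the rest of the list, a difference of −2.88 points (−4.28 to −1.52; adjusted p = 9.07e-05, Fisher's exact test). The direction depended on the count and on the comparison. Counted by sequences the region stood 1.79 points higher than the rest (adjusted p = 0.000400, Fisher's exact test), at 77.2% and 75.4%. The region had 1.84 sequences per end and the rest of the list 1.42, and 52 of the other clusters had a higher share of 5′ U ends. Against other dense windows alone, the region was 8.10 points higher (adjusted p = 1.02e-27, Fisher's exact test). Sequences of 26 to 28 nt made up 73.7% of the region and 77.0% of the rest (−3.23 points, −4.21 to −2.28; adjusted p = 6.35e-11, Fisher's exact test), and A at position 10 stood at 31.9% and 31.6% (0.378 points, −0.997 to 1.78; adjusted p = 0.600, Fisher's exact test). Against other dense windows the length difference was 0.985 points in the other direction (adjusted p = 0.0747, Fisher's exact test).

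The region was also compared with 2 larger clusters that hold both strands, on chromosomes 17 and 9. It had a 5′ U on 18.7 points more of its ends than the chromosome 17 cluster (69.1% against 50.5%; 17.1 to 20.2; adjusted p = 7.40e-106, Fisher's exact test). It had A at position 10 on 2.33 points more (31.9% against 29.6%; 0.770 to 3.91; adjusted p = 0.00841, Fisher's exact test). Sequences of 26 to 28 nt were 6.47 points more frequent (73.7% against 67.3%; 5.37 to 7.55; adjusted p = 7.10e-29, Fisher's exact test). Against the chromosome 9 cluster the 5′ U share was 2.34 points higher (69.1% against 66.8%; 0.473 to 4.21; adjusted p = 0.0245, Fisher's exact test), and the differences in A at position 10 (0.511 points, −1.35 to 2.38; adjusted p = 0.600) and in length class (1.14 points, −0.161 to 2.43; adjusted p = 0.133) did not pass Fisher's exact test. The 10-nt ratio was 1.89 in the region, 1.93 on chromosome 17 from 126 pairs and 2.50 on chromosome 9 from 17 pairs, and these ratios were not tested against each other. U positions were used as 5′ ends 3.42 and 3.01 times as often as the other bases on the minus and plus strands of the chromosome 17 cluster, and 5.15 and 5.10 times on those of the chromosome 9 cluster. The chromosome 17 cluster also had more sequences per end, 2.29 against 1.84 in the region, and the part of this in the contrast was not tested.

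**Figure D5:**
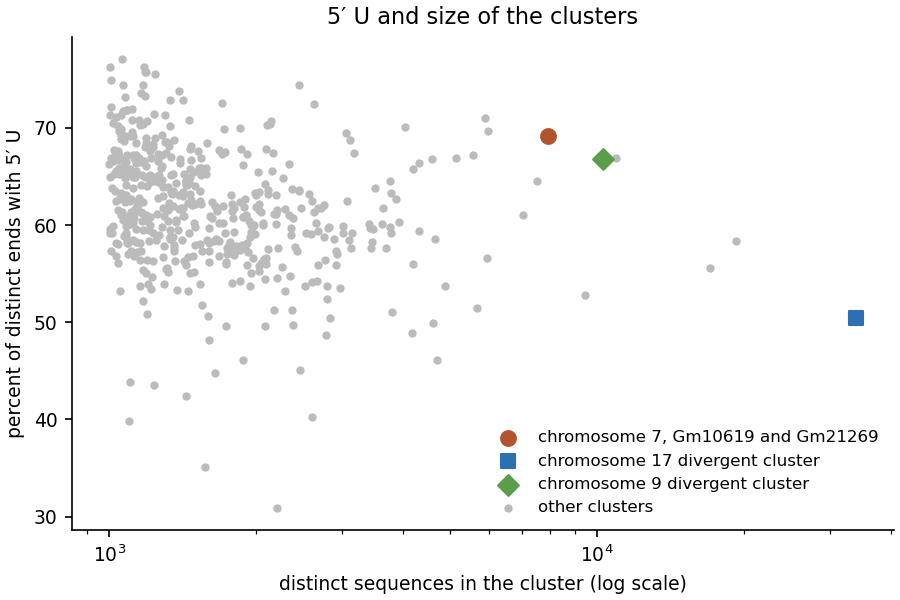
Percent of distinct ends with a 5′ U (y axis) against the number of distinct sequences (x axis, log scale) for 510 clusters, each a grey point, with the chromosome 7 region and the chromosome 17 and chromosome 9 divergent clusters marked. The region stands at 7940 sequences and 69.1%, above the median cluster at 61.7%.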

How the data were processed

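The deposited table lists distinct sequences with chromosome, start, end and strand, per the file headers, on mm9, per the submitters' processing notes. Its positions are used as deposited, with start and end both included. The sources used here do not name an aligner, adapter step or filter. The authors pooled all 4 libraries in it without counts, so the count test planned for the genotypes could not be run.

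Members and lists were chosen with earlier results of these data known. Whole sequences were matched exactly to 141767 GENCODE M21 transcripts (GRCm38), and exons were placed on mm9 by these matches, with no conversion of coordinates. Genes with 10 or more member sequences are named, and Mir7234 was added after its values were seen. The minus arm is the minus-strand ends up to the first base of Gm21269, and the plus arm the plus-strand ends from the first base of Gm10619 on. Shares carry exact Clopper-Pearson 95% intervals and differences Newcombe 95% intervals. Counts were compared with two-sided Fisher's exact tests, adjusted over 12 tests by Benjamini-Hochberg. The matching, covered-base and pairing steps were tested on simulated data. Tests and intervals came from scipy 1.17.1, tables from pandas 2.3.3 with numpy 2.4.6, and figures from matplotlib 3.10.9, under Python 3.11.15.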

Additional observations from a re-analysis of the deposited data

How the results depend on the processing

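Of 74 values recomputed under another setting, 68 were called unchanged. For tested differences this meant the same direction and side of the threshold. For ratios, and for the share matching a transcript in sense, it meant a value inside the reported interval. Counts of sequences per arm have no interval and were called unchanged within a fixed fold range. Counted as distinct ends, the minus arm held 3177 and the plus arm 997. The difference in 5′ U between the region and the rest of the list turned to 1.79 points when sequences were counted and to 8.10 points against other dense windows. Against those windows the difference in 26 to 28 nt turned to 0.985 points, and that in A at position 10 widened to 1.85 points and passed the test (adjusted p = 0.0171, Fisher's exact test). The cause was not tested. The 10-nt ratio ran from 1.79 to 2.32 over the other overlap ranges and was 2.05 without the last exon of Fam174b. That setting and the comparison of whole strands in place of arms were chosen after seeing the data. No paired analysis was possible because the list has neither counts nor library labels, and for the same reason no library could be left out. Depth limits the list as a whole: a sequence missing from it may have been too rare to be read. Each distinct sequence also has a single listed position, and repeats of the region were not annotated. Bases without a listed sequence, in introns or elsewhere, therefore cannot be read as bases without RNA.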

Other observations

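Position 2 also differed with the number of sequences per end. A G stood there in 39.8% (35.4–44.3%) of the 485 ends of the region with 4 or more sequences and in 27.7% (25.9–29.5%) of its ends with a single sequence. In the rest of the list the shares were 47.7% and 36.6%. In the region, 2 of 4322 ends (0.0463%) began with 20 nt that recurred at another listed position, against 0.844% of ends in the rest of the list, and both lay on the minus strand. The share was also low in the chromosome 17 cluster, at 0.141%, and in the chromosome 9 cluster, at 0.205%.

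The neighbourhood of the region held further sequences of its genes, with 35 over exon 2 of Fam174b to its left and 34 over the third intron of Gm21269 to its right. The share of 5′ U ends in the parts of Gm21269 outside its exons and inside the region was 83.0% (69.2–92.4%, 47 ends), against 69.7% (66.6–72.6%, 946 ends) in its exons. This difference was not tested.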
